A study of Mus musculus and Homo sapiens with 20 samples.

Results

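The comparison concerns H2AK119ub, histone H2A carrying a single ubiquitin at its C-terminal tail, in haematopoietic stem and progenitor cells (HSPCs) with and without TET2. Its members are the 4 H2AK119ub peak lists of mouse Lin- c-Kit+ bone marrow cells, 2 from wild-type (WT) and 2 from Tet2 knockout (Tet2-KO) animals, out of 20 samples in the series. They were chosen by cell type, antibody and genotype label, and peaks were read over the 19 autosomes. The WT animals were C57BL/6 mice and the Tet2-KO animals carried a germline Tet2 knockout in both alleles, backcrossed to C57BL/6. All were young adults, no other allele or treatment was named, and the lineage-negative, CD117-positive cells were enriched on magnetic beads. The knockout is present in every cell of the animal, so it is not restricted to the blood. The labels give neither the sex of the animals nor how many were pooled in a library, so that tests below measure the spread between libraries, which may be technical. The other samples were H3K27me3 libraries of the same cell type and libraries of mouse embryonic stem (mES) cells and of a human leukaemia cell line.

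H2AK119ub is written by Polycomb repressive complex 1 (PRC1), whose RING1 ubiquitin ligases act with PCGF and CBX subunits, and is removed by the PR-DUB complex, in which the deubiquitinase BAP1 works with ASXL proteins and can be recruited by MBD5 or MBD6. The mark sits at CpG islands of silent developmental genes beside H3K27me3, the mark of Polycomb repressive complex 2 (PRC2), and also spreads thinly over much of the genome. TET2 is a dioxygenase that oxidises 5-methylcytosine in DNA and RNA, and its loss is common in myeloid disease. The comparison asks where the H2AK119ub landscape of HSPCs differs when TET2 is missing.

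CUT&Tag, in which an antibody tethers a transposase that cuts and tags DNA beside the mark, gave the reads behind the lists. The deposited lists hold peak positions on mm10 and no height, score or read count, so that a value below is always a number of peaks, a covered length, or the percent of a window that lies under a peak. The depth of the libraries is unknown from these files. A promoter is the 2-kb window centred on the start of a protein-coding gene in the annotation (20807 promoters), and a gene body runs from 1 kb past the start to the gene's end in genes of at least 3 kb (18697 bodies). A promoter is called gained where the lower Tet2-KO library exceeds the higher WT library by at least 25 percentage points of the 2-kb window, and lost in the mirror case. A body is called where that margin is at least 10 points and 1000 bases. These are counts by a rule, with no p-value, because 2 libraries against 2 cannot give an exact two-sided p below 0.333.

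The windows just upstream of the start show how the promoters at either end of the comparison differ in base composition. The first 3 promoters below had the widest gains and the next 3 the widest losses. Each line gives the 250 bases that end just before the gene start, 5′ to 3′ in the direction of transcription, from the GRCm38.p6 assembly of RefSeq with mm10 coordinates, and capitals mark CG dinucleotides.
Kcnd2, chr6:21215253-21215502, plus strand: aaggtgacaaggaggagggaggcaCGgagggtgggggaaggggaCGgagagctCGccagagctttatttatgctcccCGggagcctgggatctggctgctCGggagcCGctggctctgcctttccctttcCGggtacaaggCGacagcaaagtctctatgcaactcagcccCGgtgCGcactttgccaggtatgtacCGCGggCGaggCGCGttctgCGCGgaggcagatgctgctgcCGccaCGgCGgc
Epha5, chr5:84417383-84417632, minus strand: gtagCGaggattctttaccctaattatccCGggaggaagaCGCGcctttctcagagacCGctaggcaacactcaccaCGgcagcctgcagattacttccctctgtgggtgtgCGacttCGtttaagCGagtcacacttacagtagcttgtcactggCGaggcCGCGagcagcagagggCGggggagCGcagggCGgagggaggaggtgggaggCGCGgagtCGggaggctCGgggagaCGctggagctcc
Esrrg, chr1:187608541-187608790, plus strand: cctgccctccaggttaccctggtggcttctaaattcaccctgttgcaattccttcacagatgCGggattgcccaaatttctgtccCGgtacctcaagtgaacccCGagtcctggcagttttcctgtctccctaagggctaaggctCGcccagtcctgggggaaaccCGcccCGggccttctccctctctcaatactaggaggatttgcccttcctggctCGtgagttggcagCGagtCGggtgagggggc
E030018B13Rik, chr7:63916607-63916856, plus strand: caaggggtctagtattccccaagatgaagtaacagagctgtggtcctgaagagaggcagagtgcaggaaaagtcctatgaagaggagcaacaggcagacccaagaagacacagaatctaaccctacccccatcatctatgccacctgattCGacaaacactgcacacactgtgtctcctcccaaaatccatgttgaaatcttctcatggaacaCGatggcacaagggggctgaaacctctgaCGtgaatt
Snorc, chr1:87470021-87470270, plus strand: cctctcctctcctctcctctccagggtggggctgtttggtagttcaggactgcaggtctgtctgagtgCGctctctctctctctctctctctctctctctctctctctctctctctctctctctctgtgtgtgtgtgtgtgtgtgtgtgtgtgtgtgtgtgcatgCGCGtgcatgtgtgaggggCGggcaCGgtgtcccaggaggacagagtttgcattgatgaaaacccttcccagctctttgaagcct
Klrb1c, chr6:128789216-128789465, minus strand: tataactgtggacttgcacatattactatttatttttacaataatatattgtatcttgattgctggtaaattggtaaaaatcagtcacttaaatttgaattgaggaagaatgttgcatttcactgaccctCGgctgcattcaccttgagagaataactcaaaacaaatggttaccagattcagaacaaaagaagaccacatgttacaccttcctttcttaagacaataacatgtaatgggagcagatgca
The windows of Kcnd2 and Epha5 each held 20 CG dinucleotides and that of Esrrg held 9. E030018B13Rik held 3, Snorc held 5 and Klrb1c held 1, and the Snorc window runs through a long CT and GT repeat.

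Tet2-KO HSPCs had H2AK119ub peaks at more promoters than WT HSPCs, while the total length under peaks did not separate the genotypes. A peak touched 14680 and 13655 promoters in WT replicates 1 and 2 and 15009 and 15124 in Tet2-KO replicates 1 and 2. Both Tet2-KO libraries were above both WT libraries, with means of 15066 ± 81.3 against 14168 ± 725 (SD, n = 2 each), a difference of 6.35% (two-sided exact permutation p = 0.333, the smallest that 6 assignments allow, 0.667 after Benjamini-Hochberg adjustment over 3 tests). The covered length was 170.7 and 138.4 Mb in WT and 166.0 and 174.3 Mb in Tet2-KO HSPCs. These groups overlapped (10.1% higher mean in Tet2-KO, exact permutation p = 0.667), as did the numbers of autosomal peaks, 132513 and 112281 in WT and 127019 and 133629 in Tet2-KO (6.48%, exact permutation p = 0.667).

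The low WT replicate 2 set the size of these differences. Without it, the promoter difference was 2.63%, and the mean Tet2-KO length and peak number were 0.287% and 1.65% below WT replicate 1 (values of -0.287 and -1.65). WT replicate 1 also shared more of its covered bases with the Tet2-KO lists than with the other WT list. The shared share of the joint covered bases was 0.418 between the WT libraries, 0.465 and 0.466 between WT replicate 1 and the Tet2-KO libraries, and 0.481 between the Tet2-KO libraries. The labels do not give the sex of the animals. The X chromosome, left out of the promoter and body counts, was covered over 0.541 and 0.329 Mb in WT and 2.51 and 2.69 Mb in Tet2-KO H2AK119ub libraries. In the H3K27me3 libraries it was covered over 1.05 and 1.07 Mb in WT and 24.3 and 21.7 Mb in Tet2-KO. In both marks the Tet2-KO values lay above both WT values, and genotype and any difference in sex between the groups cannot be told apart.

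Around gene starts, the difference in coverage, in percentage points, was largest at the start, where coverage was highest, and faded within a few kilobases. Within 250 bp of the start, peaks covered 57.9% and 51.8% in WT and 61.8% and 62.6% in Tet2-KO libraries, a gap of 7.29 points between the means (54.9 ± 4.29 against 62.2 ± 0.559, SD, n = 2 each; exact permutation p = 0.333). In promoters with an H3K27me3 peak in both WT H3K27me3 libraries this gap was 8.68 points, from a WT mean of 75.7%. In those with none in any library it was 3.32 points, from a WT mean of 12.3%, so these gaps start from unlike coverage. Over all promoters, the gap 1 to 2 kb downstream was 2.88 points, and 1 to 2 kb upstream it was 1.52 points. Between 5 and 10 kb on either side the groups overlapped, with gaps of 0.438 points upstream and 0.319 points downstream. Gene bodies did not separate the genotypes either, with mean covered percents of 22.7 and 20.4 in WT and 21.7 and 22.3 in Tet2-KO. In the share of each list's bases, gene bodies outside promoters took 55.5% and 55.4% in WT and 54.1% and 54.0% in Tet2-KO. Both Tet2-KO libraries were lower there, whereas the promoter share overlapped (10.5% and 11.4% against 11.5% and 11.0%). The intergenic share was 34.0% and 33.2% in WT and 34.4% and 35.0% in Tet2-KO, so both Tet2-KO libraries were higher there. The intergenic length under peaks overlapped, at 58.1 and 45.9 Mb in WT and 57.1 and 61.0 Mb in Tet2-KO. Its mean was 13.6% higher in Tet2-KO, close to the 13.7% of the promoter length under peaks. In promoter length both Tet2-KO libraries were above both WT libraries.

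**Figure D1:**
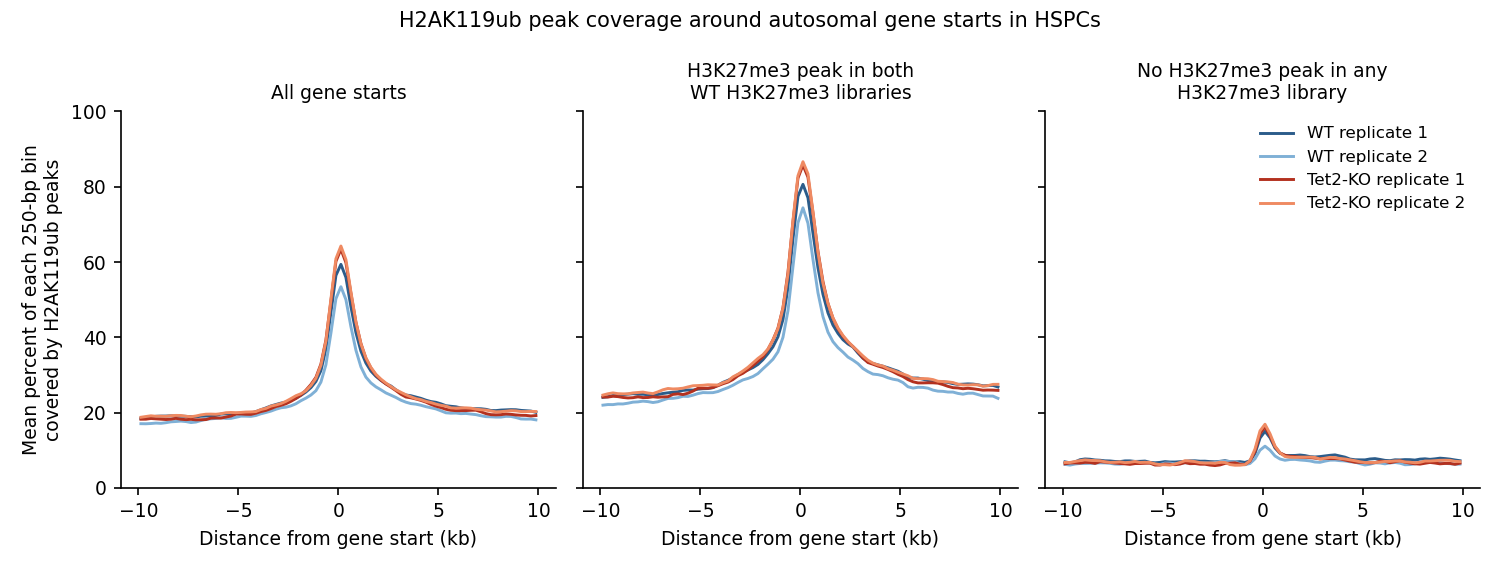
Mean percent of each 250-bp bin covered by H2AK119ub peaks (vertical axis) against distance from the gene start in kb (horizontal axis, upstream negative), one line per HSPC library, for all autosomal promoters and for those with or without H3K27me3 peaks. The Tet2-KO lines lie above both WT lines at the start, and all 4 lines come together 5 to 10 kb away.

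The promoter rule called 905 promoters gained, which is 4.35% of the 20807, and 123 lost, which is 0.591%. Of the gained promoters, 278 had no peak in either WT library, 147 had one in 1 WT library and 480 in both, so that the largest share were promoters already touched by a peak in WT. In the gained set the median covered percent was 25.2 and 23.85 in WT and 72.7 and 74.0 in Tet2-KO. In the lost set it was 77.0 and 83.7 in WT and 29.3 and 35.8 in Tet2-KO, and 49 of the 123 had no peak left in either Tet2-KO library. The margin was exactly one 501-bp peak, the narrowest width the caller usually gave, in 154 gained and 28 lost promoters. Counting only promoters with a peak in both libraries of one genotype and none in the other gave 353 gained (1.7%) and 71 lost (0.341%). The groups separated by any margin at 3818 promoters with Tet2-KO higher and at 1108 with WT higher.

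At the threshold, Asgr1 was just inside the gained set with 54.0% and 75.0% covered in WT and 100% in both Tet2-KO libraries, and Tox3 was just outside with 48.1% and 9.0% against 73.0% and 98.0%. The transcript 2210407C18Rik was just inside the lost set (25.1% and 32.7% against 0% and 0%) and Tesk1 just outside (100% and 100% against 75.0% and 69.8%). Gains were spread over the genome, from 3.03% of promoters on chromosome 17 to 6.07% on chromosome 12. Among the gained promoters, 62 had a window that overlapped that of another gained promoter, as divergent gene pairs do, so they are not independent. Limma over all 20807 promoters called 159 higher and 29 lower in Tet2-KO at an adjusted p under 0.05 (1276 and 304 at an unadjusted p under 0.05), among them Kcnd2, Epha5, A4galt and Snorc of the 16 promoters named next. On the 16107 promoters covered in at least 1 library, a set chosen after seeing the data, it called 0 (1396 and 308 at an unadjusted p under 0.05). With WT replicate 2 left out, the rule called 1618 gained and 698 lost, which is less one-sided than 905 and 123.

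The 8 widest gains were at the promoters of Kcnd2, Epha5, Esrrg, Adgra3, Marcks, A4galt, Ildr2 and Cacna2d1. Kcnd2 encodes a voltage-gated potassium channel of the A-type current (chr6:21215503-21729805, plus strand). Its promoter was at 0% in both WT libraries and at 86.3% and 82.4% in the Tet2-KO libraries. Epha5, an ephrin receptor of axon guidance (chr5:84054761-84417382, minus strand), was at 0% in both WT libraries and at 78.8% and 81.7% in Tet2-KO. Esrrg, an orphan nuclear receptor of energy metabolism (chr1:187608791-188214885, plus strand), was at 0% in both WT libraries against 74.2% and 100%. In all 3 genes an uncovered promoter in WT stood against a largely covered one in both Tet2-KO libraries, and the groups did not overlap.

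Adgra3, an adhesion G-protein-coupled receptor that starts at base 50059006 of chromosome 5, was at 0% in both WT libraries and at 73.2% and 93.7% in Tet2-KO. A4galt, the glycosyltransferase that makes the Gb3 glycolipid and starts at base 83251774 of chromosome 15, was at 0% in WT against 76.8% and 72.8%. Cacna2d1, an auxiliary calcium channel subunit that starts at base 15934691 of chromosome 5, was at 22.1% and 0% in WT and at 91.9% and 100% in Tet2-KO. Ildr2, an immunoglobulin-domain receptor that starts at base 166254139 of chromosome 1, was at 0% and 28.0% against 98.1% and 100%. For these, as for Kcnd2, Epha5 and Esrrg, the lowest H3K27me3 coverage of the promoter in any WT library was 78.6%, in Adgra3. Marcks, a protein kinase C substrate at the cell cortex that starts at base 37138920 of chromosome 10, was the exception. Its H2AK119ub coverage was 26.9% and 4.1% in WT and 100% in both Tet2-KO libraries, while its H3K27me3 coverage was 14.6% and 8.7% in WT and 0% in both Tet2-KO libraries.

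The 8 widest losses were at the promoters of E030018B13Rik, Snorc, Klrb1c, Ctsg, Hamp2, Btbd18, Meig1 and Muc3. E030018B13Rik, a short gene of undescribed function (chr7:63916857-63920539, plus strand), was fully covered in both WT libraries and at 35.4% and 25.9% in Tet2-KO. Snorc, a cartilage proteoglycan (chr1:87470271-87475482, plus strand), was at 63.3% and 66.5% in WT and 0% in both Tet2-KO libraries. Klrb1c, the NK1.1 receptor of natural killer cells (chr6:128778485-128789215, minus strand), was at 62.6% and 84.6% against 0% and 0%. Ctsg, the cathepsin G protease of neutrophil granules, starts at base 56102574 of chromosome 14 and was at 58.8% and 82.5% against 0% and 0%. For each of the 4 the WT libraries were both above the Tet2-KO libraries with no overlap.

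Hamp2, a hepcidin-family peptide gene that starts at base 30924681 of chromosome 7, was at 77.0% and 58.3% in WT and at 0% in both Tet2-KO libraries. Btbd18, a regulator of piRNA transcription in the testis that starts at base 84659079 of chromosome 2, was at 56.4% and 63.9% against 0%. Meig1, a spermiogenesis gene that starts at base 3422648 of chromosome 2, was at 65.2% and 69.0% against 12.4% and 4.85%. Muc3, an intestinal mucin that starts at base 137149322 of chromosome 5, was at 55.4% and 46.2% against 0%. Of the 8 lost promoters, Btbd18 held the most CG dinucleotides in its 2-kb window, 73, which is above the median of 64 for all promoters, and the others held 10 to 27. H3K27me3 coverage in these 8 stayed at or under 32.7% in every WT library. Reads from near-identical copies, as in the Hamp, Klrb1 and mucin families, cannot be told apart in lists of positions.

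**Figure D2:**
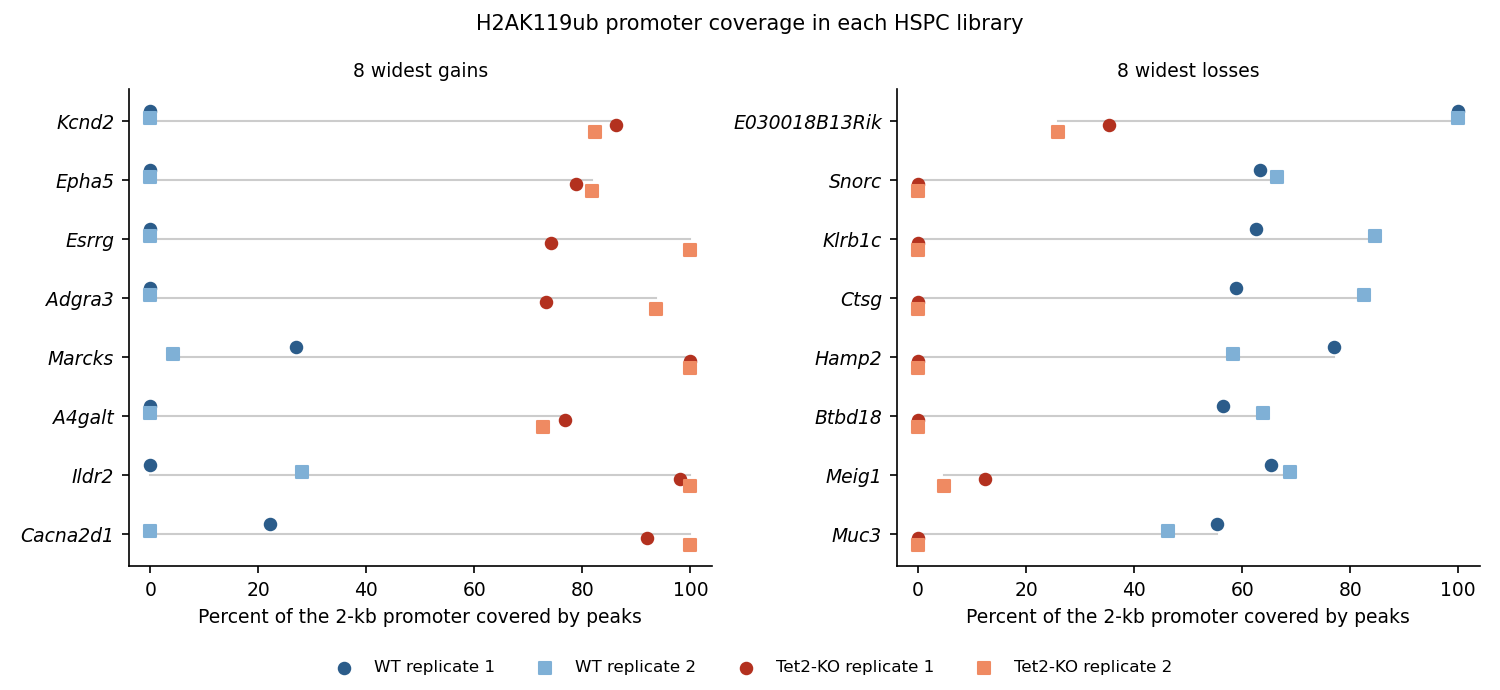
Percent of the 2-kb promoter covered by H2AK119ub peaks (horizontal axis) in each of the 4 HSPC libraries, for the 8 promoters with the widest gains and the 8 with the widest losses. Blue marks are WT and red marks Tet2-KO, circles replicate 1 and squares replicate 2. The genotypes do not overlap at any of the 16, which is how they were chosen.

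The Tet2 promoter itself met the gained rule. It was covered at 0% and 32.6% in WT and at 61.0% and 68.2% in Tet2-KO libraries (gene at chr3:133463679-133545139, minus strand), and in mES cells it was at 0% in all 4 H2AK119ub libraries. A peak list does not report RNA or the deleted bases, so these values do not check the knockout.

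Gained promoters were richer in CG dinucleotides and in H3K27me3 than all promoters. Lost promoters were poorer in both where peaks of all widths were read. All promoters include 4700 with no peak in any of the 4 libraries, which the rule cannot call. A comparison with covered promoters alone was not made. The median number of CG dinucleotides in the 2-kb window was 82 in the gained, 33 in the lost and 64 in all promoters. With peaks of at least 1000 bp only, the median of the lost promoters was 65.5 CG dinucleotides in place of 33. By a class of CpG-rich promoters (observed over expected CpG of at least 0.6 and GC of at least 55%), 32.7% of gained, 9.76% of lost and 21.05% of all promoters were CpG-rich. CpG-poor promoters, with an observed over expected ratio under 0.4, made up 27.5%, 62.6% and 42.2%. The mean H3K27me3 coverage in the 2 WT libraries was 56.6% and 57.6% in gained promoters, 23.1% and 20.6% in lost promoters and 37.8% and 39.4% in all. In the Tet2-KO H3K27me3 libraries it was 56.9% and 55.9%, 16.7% and 17.0%, and 38.3% and 37.6%. In gained promoters the H3K27me3 values of the genotypes overlapped, and in lost promoters both Tet2-KO libraries were lower.

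Setting CpG content and H3K27me3 side by side showed where coverage differed. In the 3692 CpG-rich promoters with an H3K27me3 peak in both WT libraries, the mean H2AK119ub coverage was 76.6% and 71.9% in WT and 83.5% and 84.0% in Tet2-KO, and 6.45% were gained and 0.19% lost. In the 160 CpG-rich promoters with no H3K27me3 in any library it was 37.4% and 36.1% against 47.9% and 50.4%, and 11.9% were gained and 0.625% lost. At the other end, the 5082 CpG-poor promoters without H3K27me3 were at 7.5% and 5.8% in WT and 7.3% and 7.46% in Tet2-KO. There the groups overlapped, and 1.2% were gained and 0.708% lost. The other 5 of these 6 classes had both Tet2-KO means above both WT means, in promoters with and without H3K27me3. The CpG-poor class without H3K27me3 was the exception. Within the CpG-rich class the gap between the means was 9.46 points with H3K27me3 and 12.35 points without. Of intermediate promoters, 4.54% were gained with H3K27me3 and 6.7% without. Of CpG-poor promoters with H3K27me3, 5.2% were gained. The share gained was thus higher without H3K27me3 in the CpG-rich and intermediate classes only. A promoter whose uncovered part in either WT library is narrower than the call margin cannot be called gained. One whose covered part in either WT library is narrower than that margin cannot be called lost. In both classes WT coverage was higher with H3K27me3 than without. The shares therefore differ in the room left for a call, and no effect of H3K27me3 can be read from them.

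**Figure D3:**
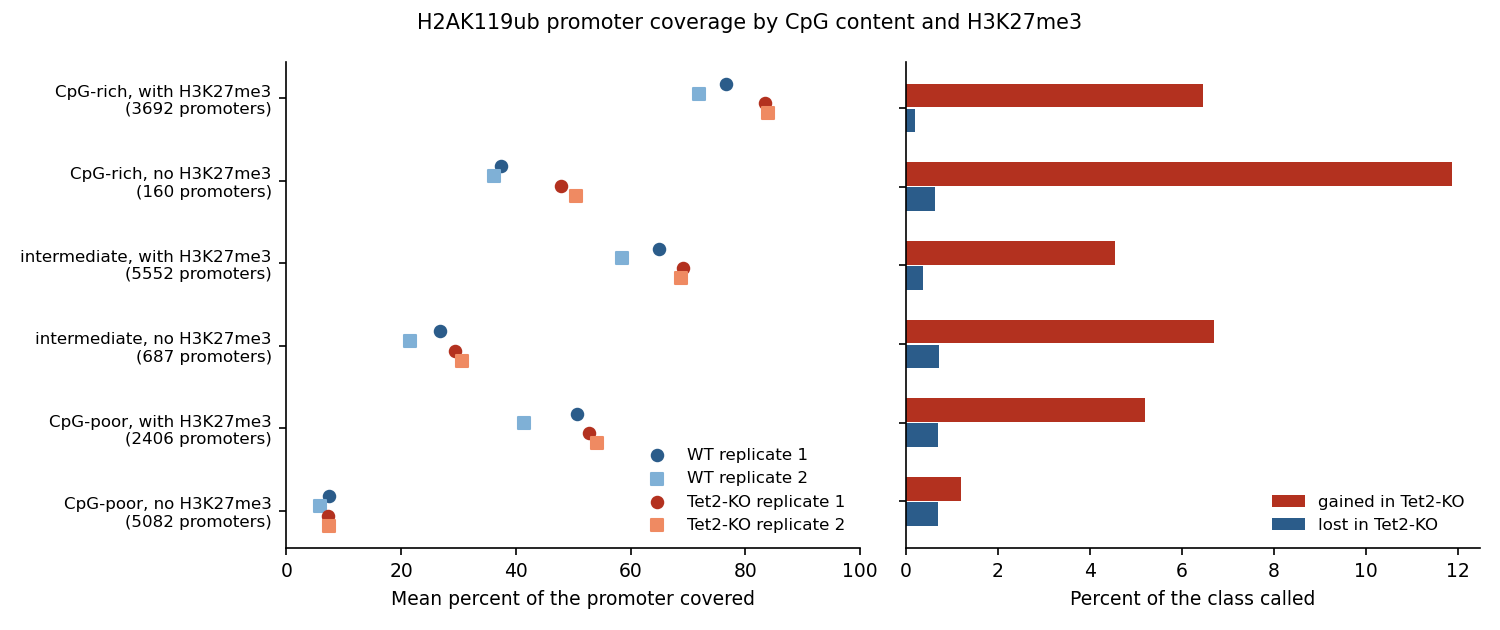
Left, mean percent of the 2-kb promoter covered by H2AK119ub peaks (horizontal axis) in each HSPC library, by CpG content and by H3K27me3 (peak in both WT libraries, or none in any of the 4). Right, percent of each class called gained (red bars) or lost (blue bars). Tet2-KO marks lie to the right of both WT marks in 5 of the 6 classes, and the CpG-poor class without H3K27me3 shows overlap.

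Short motifs in the 250 bases before to 50 after the start were compared on both strands. The SP-factor motif GGGCGG was found in 54.5% of gained, 30.1% of lost and 43.7% of all promoters, and it contains a CG itself. The CCAAT motif was found in 31.9% of gained, 40.7% of lost and 38.6% of all. The GATA motif AGATAA, read by haematopoietic GATA factors, was found in 9.72% of gained, 5.69% of lost (7 promoters) and 9.94% of all. The ETS (CCGGAAGT), NRF1 (GCGCATGC), YY1 (AAGATGGC) and E-box (CACGTG) motifs were found in 3.2% to 7.51% of gained promoters and in 2.93% to 7.82% of all promoters. A match is a description of letters in the window and not of binding.

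By gene list, developmental transcription factors, well-known Polycomb targets, were gained at a higher share of their promoters than all promoters. Of 129 measured members, 16 were gained (12.4%, beside 4.35% of all promoters) and 0 lost. In a list of this length 0 lost is near the 0.591% of all promoters. Their mean promoter coverage was 75.6% and 68.3% in WT and 87.3% and 84.8% in Tet2-KO libraries. The median difference was 10.1 points against 0 over all promoters, which include 4700 with no peak in any library. Of the 129, 125 had an H3K27me3 peak in both WT H3K27me3 libraries. Among all 11650 promoters with such peaks, 5.28% were gained. Their mean coverage was 8.0 points higher in Tet2-KO, so a higher coverage was not particular to this list. Irx4, an Iroquois homeobox factor of the heart ventricle, was at 26.1% and 0% in WT and at 100% and 89.7% in Tet2-KO. Pax3, a neural crest and muscle precursor factor, was at 38.1% and 0% against 100% and 100%. Tbx18, a T-box factor of the sinus node and ureter, was at 17.9% and 0% against 70.2% and 67.4%. Sox9, the factor of cartilage and testis, was at 57.9% and 45.7% against 100% and 100%. In Irx4 and Pax3 a promoter partly covered in only 1 WT library stood against one nearly or fully covered in both Tet2-KO libraries. All 16, among them Cdx2, Emx1, Emx2, Foxf1, Gata4, Lhx1, Six3 and Nkx2-9, had H3K27me3 over the whole promoter in all 4 H3K27me3 libraries. The share gained was above that of all promoters under each of the 6 alternatives of peak width, list length and left-out library.

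Of 39 Hox genes, the factors of body-axis position, 2 were gained and 0 lost. The share gained, 5.13%, was near the 4.35% of all promoters. Hoxa2 was at 8.95% and 53.8% in WT and at 100% and 97.7% in Tet2-KO, and Hoxb13 at 60.8% and 54.6% against 100% and 100%. Most Hox promoters were already covered, with list means of 75.9% and 71.8% in WT. Of 59 Wnt, Fgf, Bmp and Gdf ligands, 4 were gained (Fgf4, Fgf5, Fgf22 and Gdf10) and 0 lost. The share gained was 6.78%, beside 4.35% of all promoters. It lay above that of all promoters in 4 of the 6 alternatives of peak width, list length and left-out library. Fgf5, a ligand of the primed epiblast and hair cycle, was at 44.5% and 0% in WT and at 87.2% and 85.5% in Tet2-KO.

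Voltage-gated channels and collagens were also gained at a higher share than the 4.35% of all promoters. In lists this short, 0 lost is near the 0.591% of all promoters. Of 57 voltage-gated channels, 6 were gained (10.5%) and 0 lost, with list means of 48.7% and 38.2% in WT and 56.5% and 59.7% in Tet2-KO. Besides Kcnd2 these were Kcna6, Kcnc2, Kcns3, Kcnh5 and Cacna1h. Kcna6, a delayed-rectifier potassium channel, was at 8.15% and 0% in WT and at 62.1% and 61.9% in Tet2-KO. Of 42 collagens, 4 were gained (9.52%) and 0 lost, and Col23a1, a transmembrane collagen, was at 26.3% and 29.6% against 70.1% and 100%. Of 110 keratins and keratin-associated genes, 6 were gained (5.45%) and 0 lost. Krt81, a hair keratin, was at 0% in both WT libraries and at 38.9% and 67.0% in Tet2-KO. Keratin genes lie in clusters of close copies, and under the alternatives their share gained went from 0.909% to 10.0%, so it lay on both sides of that of all promoters.

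Imprinted genes, expressed from one parental allele, had 5 of 33 gained (15.2%, beside 4.35% of all promoters) and 0 lost (beside 0.591%). Phlda2, a growth-limiting gene of the placenta, was at 62.4% and 46.0% in WT and at 100% and 100% in Tet2-KO. Magel2, a gene of the Prader-Willi region, was at 0% in both WT libraries against 38.7% and 25.1%. Gnas, the gene of the stimulatory G-protein subunit, was at 36.1% and 31.8% against 63.4% and 100%. These values belong to the annotated gene start, base 174284320 of chromosome 2. They need not describe the promoter of the transcript that encodes that subunit. Sgce and Peg10 share one divergent start region, so they are not independent, although each is counted among the 5. Sgce was at 51.0% and 45.9% in WT against 78.4% and 100% in Tet2-KO. A peak list does not separate the parental alleles.

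Among cyclins, cyclin-dependent kinases and Mcm replication factors, 4 of 35 were gained (11.4%, beside 4.35% of all promoters) and 0 lost (beside 0.591%). Cdk17, a PCTAIRE-family kinase, was at 25.1% in both WT libraries and at 100% and 90.0% in Tet2-KO, and Ccna1, the germline cyclin A, was at 0% and 25.1% against 73.8% and 70.8%. Mcm10 and Cdk14 were at 0% in WT, and the lower of their Tet2-KO libraries carried a single narrow peak (25.1% of the window). Promoters of the 7 cyclin-dependent kinase inhibitors were largely covered in all libraries, and 0 were called.

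**Figure D4:**
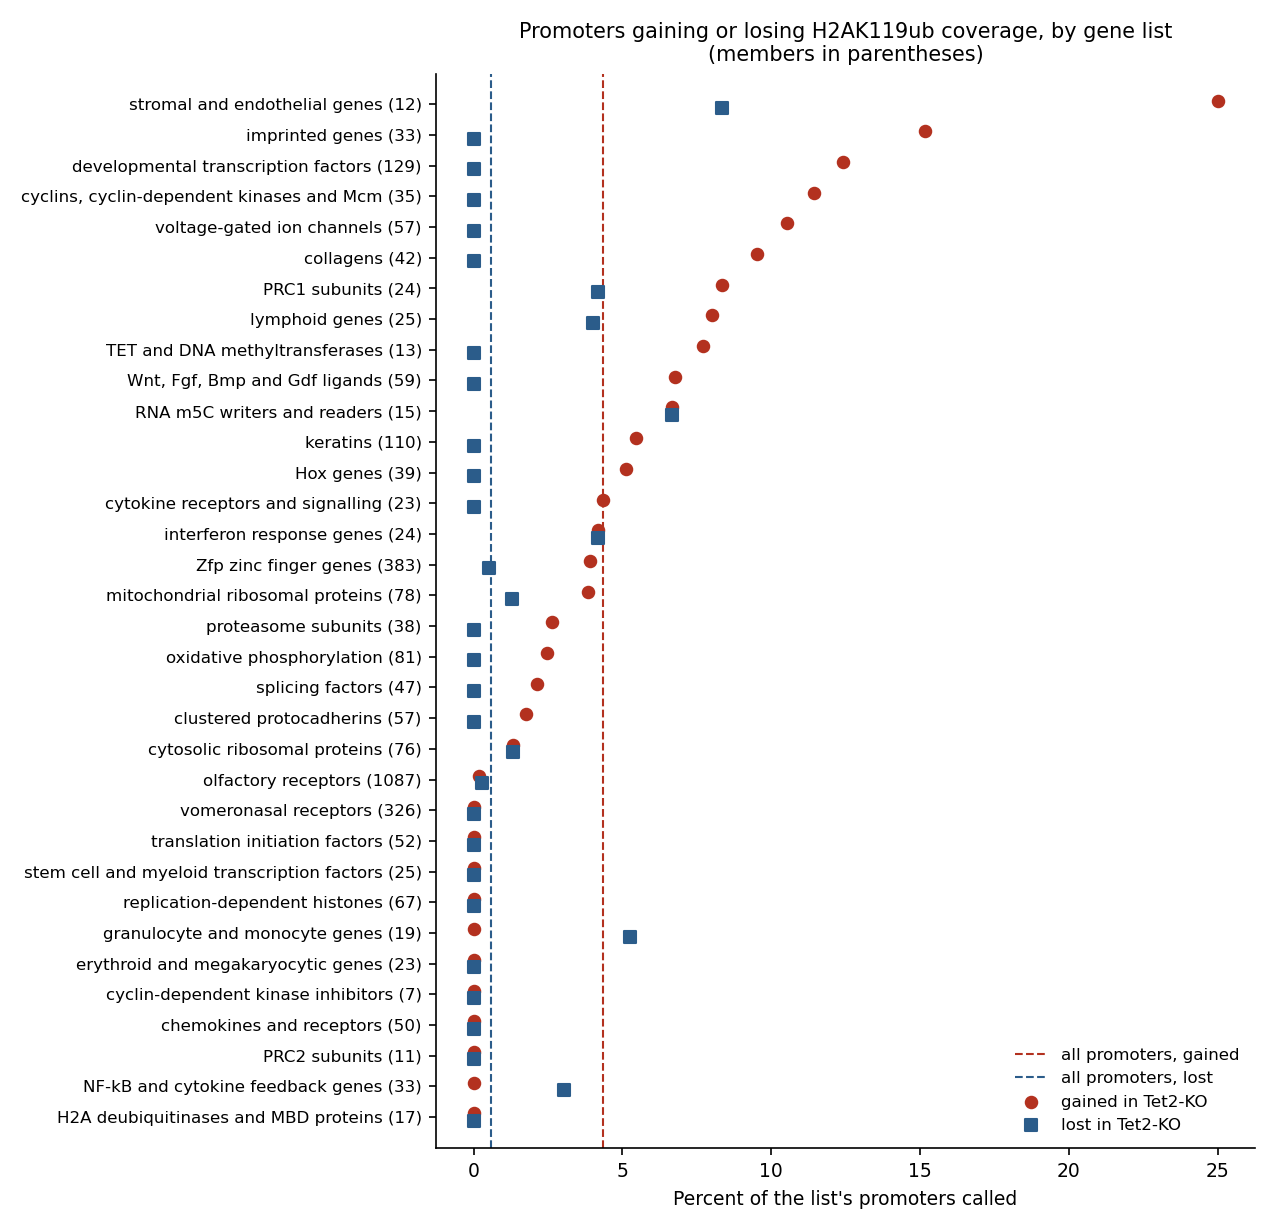
Percent of promoters called gained (red circles) or lost (blue squares) in Tet2-KO HSPCs (horizontal axis) for each of 34 gene lists, with the number of measured members in parentheses. Dashed lines give the shares of all promoters, 4.35% gained and 0.591% lost. Developmental transcription factors, voltage-gated channels and imprinted genes lie to the right of the red line. Stem cell factors, histones and translation initiation factors lie at 0 for both. In short lists, 0 lost is near the share of all promoters.

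Blood gene lists held from 0 to 3 called promoters each, and in lists this short a single lost gene puts the share lost above the 0.591% of all promoters. Of 25 stem cell and myeloid transcription factors and of 23 erythroid and megakaryocytic genes, 0 were gained and 0 lost. The mean coverage of the first list was 69.7% and 64.9% in WT and 72.0% and 74.3% in Tet2-KO. Of 19 granulocyte and monocyte genes, 1 was lost (5.26%), Ctsg, and 0 gained. Of 25 lymphoid genes, 2 were gained (8.0%, beside 4.35% of all promoters) and 1, Klrb1c, was lost (4.0%). Ikzf1, the Ikaros factor of lymphoid commitment, was at 72.2% and 72.8% in WT and at 99.6% and 100% in Tet2-KO. Bcl11b, the factor of T-cell commitment, was at 0% in WT and carried one narrow peak, 25.1% of the window, in each Tet2-KO library. Of 33 NF-kB and cytokine feedback genes, 1 was lost (3.03%), the immediate-early gene Egr1, at 95.5% and 100% in WT and at 57.1% and 48.4% in Tet2-KO. Of 24 interferon response genes, 1 was gained and 1 lost (4.17% each, beside 4.35% and 0.591% of all promoters). Ifit1 was gained, at 0% in WT against 31.6% and 26.4%, and Isg15 was lost, at 58.4% and 61.2% against 23.1% and 25.1%. Stat5b, a transducer of cytokine receptors, was gained, at 46.2% and 31.2% against 100% and 82.4%. It was 1 of 23 cytokine receptor and signalling genes, a share of 4.35%, the same as that of all promoters. Of 50 chemokines and their receptors, 0 were called at the promoter.

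Markers of the sorted population were covered in every library. The 7 stem and progenitor markers Kit, Cd34, Gata2, Runx1, Spi1, Myb and Tal1 all had a promoter peak in all 4 libraries, with a summed coverage between 539.6 points (WT replicate 2) and 595.2 points (Tet2-KO replicate 1), and the groups overlapped. A repressive mark at these promoters neither shows nor denies that the genes were expressed. Markers of other cells that the enrichment could hold gave no call for B cells (3), T cells (2), granulocytes and monocytes (4), erythroid cells (3) or stroma (3), and 1 of 2 endothelial markers was gained, Cdh5, at 48.9% and 44.2% in WT and at 100% and 84.0% in Tet2-KO. The other endothelial marker, Pecam1, was at 25.1% and 23.8% in WT and at 25.1% and 0% in Tet2-KO. The summed coverage of the 2 endothelial markers was 73.9 and 68.0 points in WT against 125 and 84.0 points in Tet2-KO, and the higher sum came from Cdh5. That of the 3 B-cell markers was 217.4 and 94.1 against 204.1 and 175.4. In the wider list of 12 stromal and endothelial genes, Cdh5, Col1a2 and Pdgfrb were gained and Adipoq lost. Fewer cells of a type and less mark per cell cannot be told apart in bulk samples, and the part of cell composition was not tested.

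Genes of the Polycomb and methylcytosine pathways held from 0 to 3 called promoters in each list. Of 24 PRC1 subunits, Kdm2b and E2f6 were gained (8.33%, beside 4.35% of all promoters) and Cbx7 lost (4.17%, beside 0.591%). Kdm2b, which brings PRC1 to unmethylated CpG islands, was at 0% and 13.9% in WT and at 55.4% and 100% in Tet2-KO, with no H3K27me3 in any library. E2f6, a DNA-binding partner of variant PRC1, was at 33.9% and 64.8% against 100% and 100%. Cbx7, the chromodomain reader of canonical PRC1, carried a single narrow peak in both WT libraries and none in Tet2-KO. Of 11 PRC2 subunits and of 17 H2A deubiquitinases and MBD proteins, 0 were called. The deubiquitinase and MBD list had means of 65.7% and 52.9% in WT and 73.4% and 68.5% in Tet2-KO. Of 15 writers and readers of RNA 5-methylcytosine, 1 was gained and 1 lost (6.67% each). Ybx2, a germ-cell Y-box protein, was gained, at 52.5% and 60.5% against 100% and 100%, and Alyref2 was lost, at 96.2% and 98.6% against 59.6% and 60.4%. Of 13 TET and DNA methyltransferase genes, 1 was gained (7.69%), Tet2. Each of these shares rests on 1 or 2 genes.

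Housekeeping and receptor families were gained in 0% to 3.92% of their promoters, beside 4.35% of all promoters. Of 67 replication-dependent histone genes 0 were called at the promoter, with list means of 64.0% and 66.3% in WT and 61.6% and 63.8% in Tet2-KO. Of 76 cytosolic ribosomal protein genes, Rpl31 was gained and Rps2 lost, and of 52 translation initiation factors 0 were called. Rps2 was fully covered in both WT libraries and at 64.5% and 69.0% in Tet2-KO, with no H3K27me3 in any library. Among 78 mitochondrial ribosomal proteins 3 were gained and 1 lost, and Mrpl10 was at 16.8% and 27.5% in WT against 82.0% and 84.5%. Oxidative phosphorylation had 2 of 81 gained, Ndufs5 and Ndufa9. The proteasome had 1 of 38 gained, Psmd6, at 0% in WT against 60.2% and 53.3%, and splicing factors had 1 of 47, Srsf4. Of 1087 olfactory receptors, 2 were gained and 3 lost, each by one narrow peak in 1 or both libraries, and of 326 vomeronasal receptors 0 were called. Of 383 Zfp zinc finger genes, 15 were gained (3.92%) and 2 lost (0.522%), and of 57 clustered protocadherins 1 was gained. The shares gained of Zfp genes and of mitochondrial ribosomal proteins (3.85%) were near that of all promoters, and lay above it in 4 and 3 of the 6 alternatives of peak width, list length and left-out library. Those of the proteasome and of splicing factors lay above it in 2 each, and those of oxidative phosphorylation and of protocadherins in 1 each.

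Gene bodies were called in both directions in more even numbers. The body rule called 157 gained, 0.84% of 18697, and 105 lost, 0.562%. Most gained bodies carried H3K27me3 and most lost bodies did not. It covered at least 10% of the body in both WT libraries in 121 of the 157 gained bodies (77.1%), in 22 of the 105 lost bodies (20.95%) and in 24.8% of all bodies. The median H3K27me3 coverage in WT was 62.5% and 64.6% of the gained bodies and 4.54% and 2.5% of the lost bodies. In H2AK119ub the median of gained bodies was 35.3% and 28.3% in WT and 53.4% and 57.6% in Tet2-KO, and that of lost bodies was 57.8% and 60.7% against 32.9% and 34.7%. Few genes were called at both, 19 gained at promoter and body and 2 lost at both. Without WT replicate 2 the body rule called 293 gained and 555 lost, and the order of the counts turned. Without each of the other libraries gained bodies outnumbered lost ones.

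The 6 widest gains in covered bases were at the bodies of Lingo1, Pax7, Adgrb1, Pax2, Wnt7a and Syt7. Lingo1, a brake on myelination and axon regrowth (chr9:56618475-56796468, minus strand), had 35.6 and 26.3 kb of its body covered in WT and 54.5 and 54.8 kb in Tet2-KO. Pax7, the muscle stem cell factor (chr4:139737062-139833528, minus strand), had 23.3 and 15.0 kb against 33.4 and 47.3 kb. Pax2, a kidney and eye factor on chromosome 19, had 30.3 and 22.9 kb against 38.9 and 40.2 kb. In all 3 both Tet2-KO libraries were above both WT libraries.
Adgrb1, an adhesion receptor for apoptotic cells on chromosome 15, had 40.2 and 29.6 kb covered in WT and 50.5 and 49.0 kb in Tet2-KO. Wnt7a, a Wnt ligand of limb and brain vessels on chromosome 6, had 11.7 and 5.03 kb against 19.3 and 20.2 kb. Syt7, a calcium sensor of vesicle fusion on chromosome 19, had 37.4 and 34.0 kb against 44.2 and 46.6 kb. The promoters of Pax2 and Syt7 were fully covered in all 4 libraries, so the difference there lay within the gene. WT replicate 2 was the lowest library in each of the 6 genes, and WT replicate 1 lay between it and the Tet2-KO libraries.

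The 6 widest body losses were at Kif17, Capn1, Odf2, Rps6ka1, Plekho2 and Srp68. Kif17, a kinesin motor on chromosome 4, had 34.2 and 37.6 kb covered in WT and 27.8 and 28.3 kb in Tet2-KO. Capn1, the calpain protease on chromosome 19, had 16.8 and 14.9 kb against 9.53 and 8.37 kb. Odf2, a centriole appendage protein on chromosome 2, had 9.39 and 9.14 kb against 4.0 and 3.99 kb. Rps6ka1, the RSK1 kinase below ERK on chromosome 4, had 22.3 and 23.0 kb against 17.3 and 17.6 kb. In each of these the WT pair and the Tet2-KO pair lay close together and apart from each other.
Plekho2 on chromosome 9 had 13.0 and 13.9 kb against 8.66 and 8.57 kb, and Srp68, a signal recognition particle subunit on chromosome 11, had 14.0 and 18.4 kb against 9.66 and 10.1 kb. Apart from Kif17 (22.3% and 16.6% in WT), H3K27me3 covered at most 4.54% of these bodies in any library. The promoters of Capn1 and Plekho2 were fully covered in all 4 libraries. Of 49 bodies of translation initiation factors and of 47 of splicing factors, 1 each was lost and 0 gained (beside 0.562% lost and 0.84% gained of all bodies), with Eif3b at 29.4% and 35.0% of the body in WT against 17.2% and 14.1% and U2af1 at 34.3% and 29.8% against 14.3% and 11.9%. Of 47 bodies of cytosolic ribosomal protein genes, 1 was lost, Rpl26, at 42.8% and 64.8% against 0% and 0%, and 1 was gained, Rps10, at 52.9% and 43.6% against 88.6% and 74.3%. Fcgr3, a Fc receptor of myeloid cells, was at 44.0% and 67.3% against 24.6% and 22.8%, and Tbx21, the T-bet factor, at 60.8% and 61.9% against 42.6% and 50.7%. The H2A deubiquitinase Usp21 was at 99.5% and 100% against 68.8% and 58.8%.

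**Figure D5:**
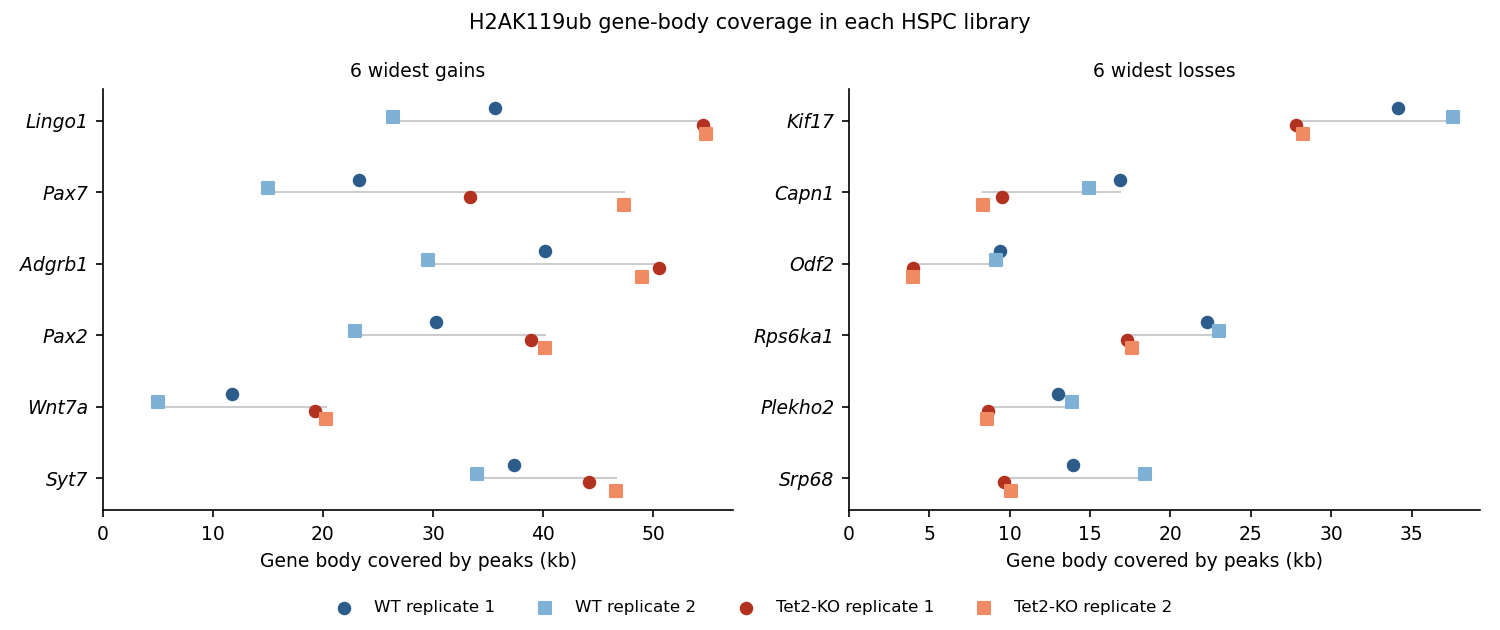
Kilobases of the gene body covered by H2AK119ub peaks (horizontal axis) in each of the 4 HSPC libraries, for the 6 bodies with the widest gains and the 6 with the widest losses. Blue marks are WT and red marks Tet2-KO. In the gains WT replicate 2 is the lowest mark in each gene, and in the losses both WT marks lie to the right of both Tet2-KO marks.

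Listed members were also found among the gained bodies. Among developmental transcription factors 6 of 108 bodies were gained and 1, Tbx21, lost, beside 0.84% and 0.562% of all bodies. Isl1, the motor neuron and second heart field factor, was at 27% and 10.9% of the body in WT and at 48.5% and 52.7% in Tet2-KO, and Tbx4 was at 62.8% and 57.3% against 75.3% and 80.2%. Bmp4, a morphogen, was at 40.2% and 14.6% against 66.1% and 80.2%. Hoxd4 and Hoxc4 were gained out of 28 Hox bodies, and Dlk1, the imprinted Notch-family ligand, was at 17.4% and 34.8% against 60.5% and 53.2%. Of 54 keratin bodies, 5 were gained, and Krt82 was at 17.8% and 0% against 50.4% and 56.0%.

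Counted in bases rather than genes, 65.97 Mb lay under a peak in all 4 libraries, 14.1 Mb in both Tet2-KO and no WT library, and 8.07 Mb in both WT and no Tet2-KO library. In stretches of at least 500 bp there were 9971 gained and 5225 lost, with median lengths of 616 and 580 bp. Of the gained stretches 51.2% (95% Wilson interval 50.3 to 52.2, counting error only) abutted bases covered in a WT library, and 47.9% (46.6 to 49.3) of the lost stretches abutted bases covered in a Tet2-KO library, so stretches beside shared peaks and stretches apart from them were close to equal in number. Promoters held 8.59% of the gained and 3.41% of the lost stretch bases, beside 10.5% to 11.5% of all covered bases in the 4 libraries, and make up 1.59% of the autosomes. Both kinds of stretch thus held a lower share of promoter bases than the peak lists as a whole. An H3K27me3 peak was present in both WT libraries at 42.5% of the gained and 13.9% of the lost stretches. Bases that RepeatMasker-type soft masking marks as repeats made up 17.6% of the gained and 21.4% of the lost stretches. The H3K27me3 and repeat shares were not computed for all covered bases. They compare gained with lost stretches only.

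The same call on the H3K27me3 libraries of the HSPCs gave 314 promoters higher in Tet2-KO (1.51%) and 384 lower (1.85%), so the 2 directions were nearly even. Within the 905 promoters that gained H2AK119ub, 15 also gained H3K27me3 and 21 lost it, and within the 123 lost promoters 1 gained and 7 lost it.

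In mES cells the H2AK119ub lists of Tet2-KO and WT cells gave nearly even calls. A peak touched 14391 and 14579 promoters in WT and 14618 and 14411 in Tet2-KO mES cells, and the groups overlapped. The promoter rule called 324 gained (1.56%) and 323 lost (1.55%). On the log2 scale the Tet2-KO difference in promoters with a peak was 0.09 in HSPCs and 0.0029 in mES cells, and the difference between the cell types was 0.087 (two-sided exact permutation over 36 arrangements, p = 0.278, where the smallest possible is 0.0556). A difference of the genotype effect between the cell types was therefore not detectable with 2 libraries a group. The promoters gained in HSPCs were covered at 54.6% and 56.2% in WT and at 55.9% and 54.7% in Tet2-KO mES cells, and 17 of the 905 were gained there and 15 lost.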

How the data were processed

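H2AK119ub was profiled by CUT&Tag in mouse Lin- c-Kit+ HSPCs, 2 WT and 2 Tet2-KO libraries, with Drosophila chromatin added as a spike-in. The authors trimmed reads, aligned them to mm10 with Bowtie2, removed duplicates with Picard and called broad peaks with MACS2 in each library. The submitters' processing notes name Trimmomatic 0.39, Bowtie2 2.4.1 and HOMER 4.9, without a role for the last. Only the peak positions (chromosome, start, end) were read from the deposited files. Read depth is therefore unknown, spike-in scaling cannot be applied and no interval for depth can be given.

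Groups came from the genotype labels. Covered bases of overlapping peaks were counted once over protein-coding genes of GENCODE M21 (GRCm38, the same build as mm10) in Python 3.11.15 with NumPy 2.4.6, pandas 2.3.3 and SciPy 1.17.1. Promoter, body and margin rules are given with the results. Library values were compared by two-sided exact permutation over 6 assignments, adjusted over 3 tests, and the cell types over 36 arrangements. Limma 3.58.1 on percent covered was an alternative. The calling rule and limma were tested on simulated data. Genes named in the text are the 8 gained and 8 lost promoters with the widest margin, the 6 gained and 6 lost bodies with the widest margin in bases, called members of 34 gene lists, and Tet2. Promoters at the threshold were named by their place beside it. CpG and motif counts were read from GRCm38.p6. The members and lists were chosen with earlier results of these data known. No pair of libraries held the same list (14 to 25 identical peaks per pair). Alternatives were peaks of at least 1000 bp, peaks joined over gaps of up to 1000 bp, equal peak numbers, X included, each library left out, a replicate block, other promoter widths and starts, and other call rules. Equal peak numbers kept the first peaks of each list. The lists ran from wide to narrow (Spearman correlation of order and width -0.94 to -0.93), so mostly narrow peaks were left out. H3K27me3 lists of mES cells and the lists of the human cell line were not used.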

Additional observations from a re-analysis of the deposited data

Results flagged for a closer look

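The X chromosome, which the promoter and body counts leave out, had a longer length under H2AK119ub peaks in the Tet2-KO HSPC libraries than in the controls. It was covered over 2.51 Mb in Tet2-KO replicate 1 and 2.69 Mb in Tet2-KO replicate 2, beside 0.541 and 0.329 Mb in the WT libraries. Both Tet2-KO libraries were above both WT libraries. H3K27me3 peaks covered 24.3 and 21.7 Mb of it in Tet2-KO and 1.05 and 1.07 Mb in WT. The labels do not give the sex of the animals, so genotype and any difference in sex between the groups cannot be told apart.

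Among the called promoters of the named genes and gene lists, 5 that gained coverage in Tet2-KO HSPCs were lower in both Tet2-KO than in both WT libraries of mES cells, and the difference between the cell types was not tested for single promoters. The margin by which mES coverage was lower was -6.3 points at Zfp697, -16.1 points at Olfr1342, -4.2 points at Zfp709, -3.1 points at Zfp287 and -1.6 points at Bcl11b. Each of these was under the 25-point margin that a call requires. How many promoters were lower in Tet2-KO mES cells by any margin was not counted, so these 5 have no share of all promoters beside them.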

How the results depend on the processing

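The higher number of promoters with a peak in Tet2-KO HSPCs kept its direction under every alternative run, from 2.63% to 10.3% with one library left out and from 5.3% to 14.1% under the others. The covered length and the peak number reversed without WT replicate 2, to -0.287% and -1.65%, and the ranges with one library left out were -0.287% to 22.9% and -1.65% to 16.1%. Equal peak numbers leave no value for the peak number. The excess of HSPC over mES cells on the log2 scale kept its sign (0.035 to 0.139 with one library left out). Leaving out a library loosens the rule by construction: gained promoters were 1618 to 3064, lost promoters 392 to 698, gained bodies 293 to 1223 and lost bodies 349 to 558. Counts of gained and lost features otherwise moved with the rule. Promoters of 2 kb on each side gave 280 gained and 32 lost. Doubling the margins gave 74 and 7 promoters and 14 and 7 bodies. Any separation gave 3818 and 1108 promoters and 2935 and 1982 bodies. The rule of a peak in one genotype and none in the other gave 353 and 71 promoters and 240 and 173 bodies. Peaks of at least 1000 bp gave 251 and 187 bodies, and joined peaks 241 and 198.

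Limma over all features called 159 and 29 promoters and 19 and 18 bodies at an adjusted p under 0.05. Left to features covered in at least 1 library, an alternative chosen after seeing the data, it called 0 and 0 promoters and 0 and 0 bodies (1396 and 308 promoters and 625 and 512 bodies at an unadjusted p under 0.05). The limma calls thus depended on the 4700 promoters at 0 in every library. As further alternatives chosen after seeing the data, the share of gained bodies with H3K27me3 was 63.7% to 76.8%, and that of lost bodies 17.0% to 25.8%. The median number of CG dinucleotides in lost promoters was 36 to 65.5 over the alternatives of peak width, list length and left-out library, so at most it was above the 64 of all promoters.

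The replicate numbers are shared by WT and Tet2-KO labels. Deviations of same-numbered libraries correlated at -0.01 over promoters, so the numbers gave no sign of pairing. With a replicate block, 1165 promoters were gained and 169 lost, 260 bodies gained and 203 lost, and the promoter difference was 6.5%. Of the 16 named promoters and Tet2, all 17 kept their call under the alternatives of peak width and list length, 15 with the margin doubled, and limma over all promoters called 4 of the 16. Of the 12 named bodies, 8 kept it with peaks of at least 1000 bp and 9 with equal peak numbers and 1 with the margin doubled, and all 12 kept their direction. With a library left out no call can be lost, because the rule is then looser. Peak lists without scores limit the precision to the width and number of peaks.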
